A study of Mus musculus with 96 samples.

Results

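Kcnb2, Kcnc1, Kcnc2 and Kcnc4 encode pore-forming subunits of delayed rectifier potassium channels, Kcnb2 of the Kv2 subfamily and the other members of the Kv3 subfamily. They were taken by symbol as 4 of the 38887 genes in the expression table of a Patch-seq study of the mouse lateral superior olive (LSO), a nucleus of the auditory brainstem. In Patch-seq a neuron is recorded through a patch pipette and its cytoplasm is then drawn into the same pipette for sequencing. The neurons came from acute coronal slices of C57BL/6J mice of both sexes in the second postnatal week, with no further genotype or treatment, and each neuron gave 1 library after a modified Smart-seq2 protocol. By the firing pattern in the labels, 52 of the neurons used here were principal neurons (pLSOs), of which 41 had an Onset and 11 a Sustained pattern, and 28 were lateral olivocochlear neurons (LOCs) with delayed firing. The 8 negative controls were pipettes that had only touched the slice.

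The series holds 86 labelled neurons and 10 labelled controls. Of these, 6 neurons and 2 controls were left out because an earlier examination of these data found that they stood apart from their label or from the study's own listing, which was not examined again here. With all 86 neurons the share with Kcnc4 was 33.3% of LOCs, 2.27% of Onset and 8.33% of Sustained neurons, and the share with Kcnc1 was 23.3% of LOCs, 31.8% of Onset and 33.3% of Sustained neurons, close to the values given below. The labels name no animals, so each class is 1 sample, no test between classes was possible, and the intervals printed with shares are 95% Clopper-Pearson intervals that cover counting error only. The class labels were checked against marker genes. Of the lists, 8 of 8 pLSO markers had a mean at least 2-fold higher in pLSOs and 7 of 7 measured LOC markers in LOCs, although these lists were partly chosen by the study on the same neurons and are not independent evidence. Of the 10319 genes detected in at least 5% of the neurons, 30.9% were at least 2-fold higher in pLSOs and 21.9% in LOCs. By share the pLSO marker Slc6a5 went the other way, in 13.5% of pLSOs and 21.4% of LOCs, unlike the other pLSO markers. The LOC marker Chat was detected in 17.9% of LOCs. Spp1, which encodes osteopontin, was detected in 96.2% of pLSOs and 3.57% of LOCs, and Isl1, a transcription factor of cholinergic motor and olivocochlear neurons, in 0 of 52 pLSOs, which allows a share of up to 5.77%, and in 78.6% of LOCs. The number of genes detected had a median of 2560.5 in pLSOs, 2394 in LOCs and 821 in the negative controls.

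Delayed rectifiers open when the membrane depolarises and carry the potassium current that ends an action potential. Kv3 channels open only at strongly depolarised potentials and close fast, and they are known in auditory brainstem neurons for brief spikes and high firing rates. Kv2 channels gate more slowly, lie in clusters at the soma and proximal dendrites, and are known for keeping the membrane hyperpolarised between spikes during long trains. Every channel of these subfamilies is built from 4 pore-forming subunits, and the Kv2 subunits also assemble with electrically silent modifier subunits.

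The coding sequences show how alike the members are, and whether their reads can be told apart. Over the longest coding sequences in Gencode vM21, Kcnc1 shared 72.6% of aligned bases with Kcnc4 and 68.3% with Kcnc2, and Kcnc2 shared 67.2% with Kcnc4. Kcnb2 shared between 49.9% and 51.5% with each of the Kv3 genes. The longest identical run between the isoforms compared, for any pair, was 29 bases, between Kcnc1 and Kcnc2 and between Kcnc1 and Kcnc4, well under the read length of 88 bases. An untrimmed read of that length cannot match 2 of these isoforms without a mismatch.

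The genes themselves lie on different chromosomes. Kcnb2 (ENSMUSG00000092083) spans chr1:15287254-15723750 on the plus strand, Kcnc1 (ENSMUSG00000058975) chr7:46396497-46438704 on the plus strand, Kcnc2 (ENSMUSG00000035681) chr10:112271121-112467024 on the plus strand and Kcnc4 (ENSMUSG00000027895) chr3:107438303-107459552 on the minus strand. All are protein-coding, and their merged exons cover 15165, 9458, 7138 and 3667 bases in that order.

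The unit of the table is TPM, transcript abundance scaled so that every library has the same total, rounded to whole numbers, and detection here means a listed value of at least 1 TPM. How many reads stand behind a listed 1 TPM differed strongly between the members. In rows near the top of the table the values of a library were whole multiples of the worth of 1 read, and that worth fell along the rows as if each library had been divided by gene lengths sorted in ascending order rather than by each gene's own length. On this model the value that rounds up to 1 TPM corresponded, in the median neuron, to 2 reads for Kcnc4, 5 for Kcnc2, 12 for Kcnc1 and 52 for Kcnb2. The model was checked in 8 windows between rows 1700 and 7000, where the length scale that best gave whole reads lay between 1.00 and 1.065 times the assumed lengths. In the window of rows 6000 to 6400, which includes Kcnc4, it was 1.04, with a score for whole multiples of 0.860 at that scale and 0.737 at the assumed lengths, where 1 stands for whole multiples throughout. The check took only values where 1 read was worth more than 2 TPM, and no neuron used here entered this window. In neurons 1 read was worth at most 231 TPM at a length of 1 base, and the assumed lengths in this window began at 127 bases. Its score rests on controls and libraries left out, so in neurons the row of Kcnc4 was not checked. The model was extrapolated to the rows of the other members, and to the neurons at the row of Kcnc4. A listed 0 is therefore not a count of 0 reads, above all for Kcnb2, and shares of different members cannot be set against each other.

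**Figure D1:**
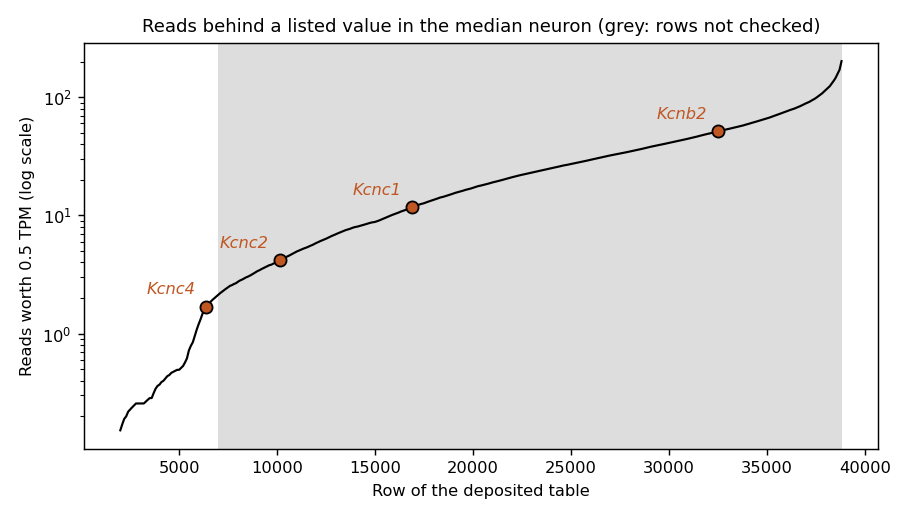
Estimated number of reads worth 0.5 TPM in the median neuron (log scale) against the row of the deposited table, with the 4 genes as points and the rows beyond the check in grey. Kcnc4 sits lowest, and Kcnb2 highest, where a value under about 52 reads is printed as 0.

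Kcnc4 was detected in a larger share of LOCs than of pLSOs. It encodes Kv3.4, a Kv3 subunit with fast inactivation through its N terminus. It was detected in 10 of 28 LOCs (35.7%, interval 18.6% to 55.9%) and in 2 of 52 pLSOs (3.85%, interval 0.469% to 13.2%). The mean was 4.43 ± 14.0 TPM in LOCs (SD over 28 neurons) and 0.135 ± 0.841 TPM in pLSOs (SD over 52 neurons). The share was 31.9 percentage points lower in pLSOs, and 3.25% of the 10319 genes detected in at least 5% of the neurons had a share at least 20 percentage points higher in LOCs.

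In the 10 LOCs the values of Kcnc4 were 72, 20, 12, 8, 4, 3, 2, 1, 1 and 1 TPM, and in the other 18 it was listed at 0. The highest value stood far above the rest, and the mean without that neuron was 1.93 TPM. Estimated reads behind the 10 values ran from 1.70 to 126, with a median of 22.7, so the LOCs at 1 TPM rest on between 1.70 and 3.28 reads each. The reads needed for a listed value had a median of 2 in LOCs (up to 6) and 2.5 in pLSOs (up to 11). At a threshold of 2 TPM the share was 25.0% of LOCs, 0% of Onset and 9.09% of Sustained neurons. Among pLSOs, 1 Onset neuron had 1 TPM (an estimated 9.01 reads) and 1 Sustained neuron had 6 TPM (an estimated 41.8 reads), so that both classes overlapped, both having a median of 0 TPM.

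The ratio of the means, LOC over pLSO, was 32.9, with the pLSO mean resting on 2 neurons. It was 14.3 without the highest LOC and 226 without the highest pLSO. Of the 2 members that passed the 5% filter, Kcnc4 lay past 2-fold between pLSOs and LOCs, and it passed the filter through the LOCs. Of all genes tested, 21.9% were at least 2-fold higher in LOCs and 30.9% in pLSOs, so that a fold of this kind is common in these sparse values. The mean of log2(TPM + 1) was lower in pLSOs than in LOCs by a difference of -0.87. This is smaller than the SD over neurons in LOCs, 1.63, and larger than that in pLSOs, 0.41, on this log2 scale. The neuron with 72 TPM had the longest spike of the LOCs, with a halfwidth of 3.37 ms, and the lowest input resistance of that class, 58.8 MOhm. Its spike also had the smallest amplitude of the LOCs, so that its recording stood apart from the others.

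Of the 8 negative controls 1 listed Kcnc4, at 6 TPM (12.5%, interval 0.316% to 52.7%), which corresponded to an estimated 0.920 reads and so to about 1 read. This interval overlapped that of LOCs, 18.6% to 55.9%. By share alone the LOCs could not be told from the controls at this number of libraries. The 6 TPM lay above the LOC values of 4, 3, 2, 1, 1 and 1 TPM and below those of 72, 20, 12 and 8 TPM. The mean in controls was 0.75 TPM, beside 4.43 TPM in LOCs and 0.135 TPM in pLSOs. Summed oligodendrocyte transcripts had their highest median in the negative controls and also differed between the classes. Summed neuron transcripts had their highest median in the controls too. For 7 neuron markers the summed median was 2479 TPM in Onset neurons, 1709 TPM in Sustained neurons, 1182.5 TPM in LOCs and 4449 TPM in the controls. A median of 3 neuron markers was listed per control and of 6 per neuron in each class. The summed TPM of 8 oligodendrocyte markers had a median of 271 in Onset neurons (range 0 to 12835), 594 in Sustained neurons (7 to 6432), 1115 in LOCs (1 to 25788) and 6831 in the controls (389 to 42992). These sums weigh genes unequally, as the scale of the values changes along the rows. The number of these markers listed per library had a median of 4 in every group. Of the 7 tested, 3 were at least 2-fold higher in LOCs, 0 in pLSOs and 4 neither, beside 21.9% and 30.9% of all genes tested. Of these markers, Olig2 was at 0 in Onset and Sustained neurons and the controls, and Olig1 in the controls. The 6 astrocyte markers had summed medians of 35, 38, 42 and 97.5 TPM in the same order, and Aldh1l1 and Gja1 were at 0 in LOCs. The 7 microglia markers had summed medians of 1, 150, 10 and 0.5 TPM, and the 5 endothelial markers 0 TPM in each group. The part of these cells in the Kcnc4 values was not tested.

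Kcnc1 was detected in neurons of every class. It encodes Kv3.1, the Kv3 subunit best known from fast-spiking neurons of the auditory brainstem. It was detected in 14 of 41 Onset neurons (34.1%, interval 20.1% to 50.6%), in 4 of 11 Sustained neurons (36.4%, interval 10.9% to 69.2%) and in 6 of 28 LOCs (21.4%, interval 8.30% to 40.95%). The intervals overlapped in every pair of classes.

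The values of Kcnc1 in the 14 Onset neurons were 19, 15, 15, 13, 10, 9, 9, 6, 3, 3, 2, 1, 1 and 1 TPM. In the 4 Sustained neurons they were 6, 3, 2 and 2 TPM. In the 6 LOCs they were 16, 7, 6, 6, 2 and 1 TPM. The classes overlapped over nearly the whole range, and values above 7 TPM occurred in 7 Onset neurons and 1 LOC.

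The mean of Kcnc1 was 2.31 ± 4.60 TPM in pLSOs (SD over 52 neurons) and 1.36 ± 3.50 TPM in LOCs (SD over 28 neurons), or 0.815 TPM in LOCs without the highest neuron. The ratio of 1.70 did not reach 2-fold, but without the highest LOC it was 2.83 and so past it, and 1 neuron decides this call. The difference of mean log2(TPM + 1) was 0.33, pLSO minus LOC. The share was 13.2 percentage points higher in pLSOs, and 5.46% of the genes tested had a share at least 20 percentage points higher there. The log2 difference is smaller than the SD over neurons, which was 1.38 in pLSOs and 1.16 in LOCs on this log2 scale. Within pLSOs the mean was 2.61 TPM in Onset and 1.18 TPM in Sustained neurons, a ratio of 2.21, which fell to 1.86 without the highest Onset neuron and rose to 3.73 without the highest Sustained neuron, while the shares differed by -2.22 percentage points, Onset minus Sustained. Of all genes tested, 35.2% were at least 2-fold higher in Onset than in Sustained neurons and 23.7% the other way.

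The negative controls listed Kcnc1 in 2 of 8 libraries (25.0%, interval 3.19% to 65.1%), at 3 and 2 TPM. By share alone the neurons could not be told from the controls at this number of libraries. The estimated reads were 7.92 and 6.45 in those controls, between 25.3 and 992 in the Onset neurons, between 10.7 and 154 in the Sustained neurons and between 22.2 and 343 in the LOCs. Every neuron with Kcnc1 therefore had more estimated reads than either control, while in TPM the lowest neurons, at 1 TPM, lay below both. The read numbers cannot tell neurons from controls, because depth differed. The worth of 1 read at a length of 1 base had a median of 1256 TPM in the controls and 52.7 TPM in neurons. A neuron needed a median of 12 reads for a listed value, more than either control had. The reads needed for a listed value also differed, with a median of 14 in pLSOs and 10.5 in LOCs.

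**Figure D2:**
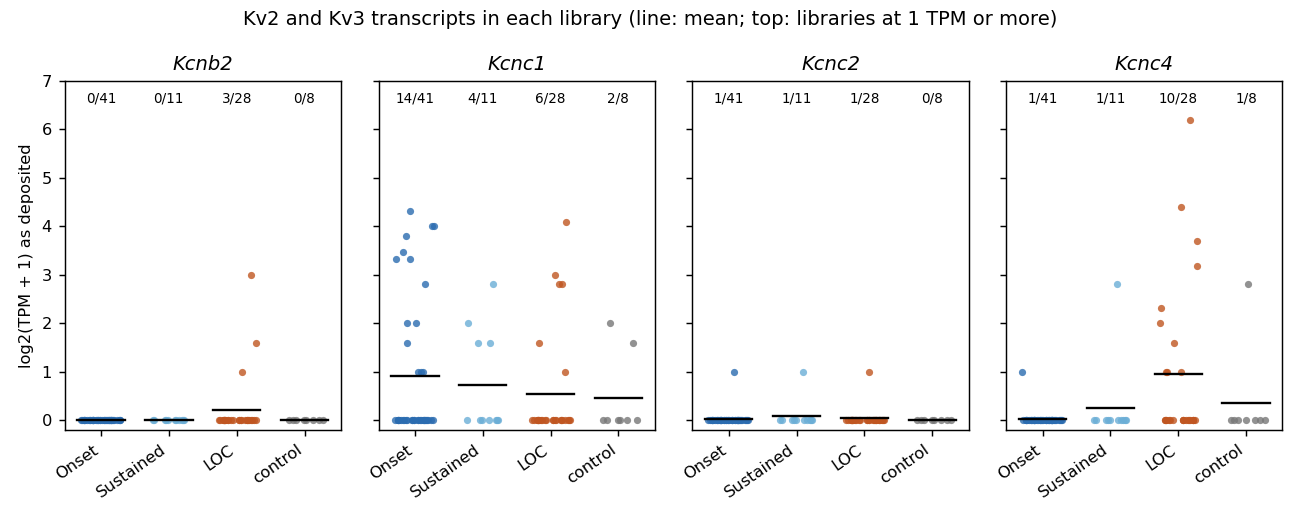
log2(TPM + 1) of the 4 genes in each library used, by class, with 1 point per library, a line at the mean, and the number of libraries at 1 TPM or more above. Kcnc1 is spread over all classes, whereas the Kcnc4 points lie almost all in LOCs, with 1 neuron at 72 TPM.

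Kcnb2 was listed in LOCs alone among the neurons used. It encodes Kv2.2, and 3 of 28 LOCs had it (10.7%, interval 2.27% to 28.2%), at 7, 2 and 1 TPM. It was listed at 0 in all 52 pLSOs, which allows a share of up to 5.77% at or above the printed threshold, and in all 8 controls. The interval for LOCs reaches below that limit, and the difference was not resolved at this number of neurons. The 3 LOCs held an estimated 680, 262 and 101 reads of Kcnb2, more than the median threshold of 44 reads in LOCs. In pLSOs that threshold was 61 reads in the median neuron and up to 311, so pLSOs with fewer reads than this would be printed as 0.

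Kcnc2 was listed in 3 neurons, 1 in each class. It encodes Kv3.2, known from cortical interneurons and thalamic neurons, and it was listed at 1 TPM in 1 of 41 Onset neurons (2.44%), 1 of 11 Sustained neurons (9.09%) and 1 of 28 LOCs (3.57%), and in 0 of 8 controls. These values stood for an estimated 6.29, 17.3 and 16.7 reads. The Sustained neuron was the same that held Kcnc4 at 6 TPM, and it had 6276 detected genes, the most of all 80 neurons.

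**Figure D3:**
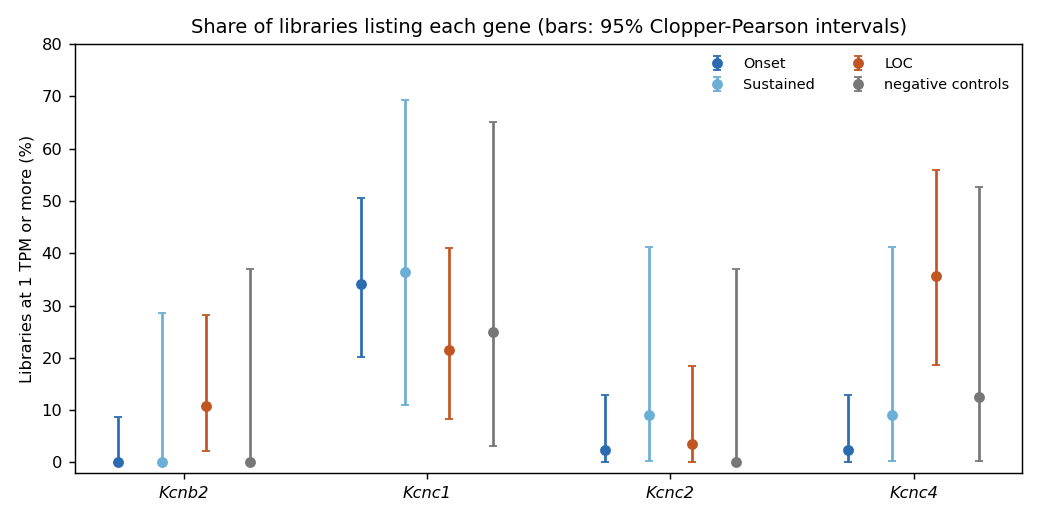
Percent of libraries at 1 TPM or more for each gene in Onset neurons, Sustained neurons, LOCs and negative controls, with 95% Clopper-Pearson intervals as bars. For Kcnc4 the LOC interval starts at 18.6% and the Onset interval ends at 12.9%, and the other intervals of a gene overlap. How many of all genes tested have intervals set apart was not counted.

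The median of the shares over all genes tested was 19.2% in pLSOs and 17.9% in LOCs. The share of Kcnc4 was 31.9 percentage points lower and that of Kcnc1 13.2 percentage points higher in pLSOs. Kcnb2 and Kcnc2, each in 3 of 80 neurons (3.75%), did not pass the 5% filter.

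**Figure D4:**
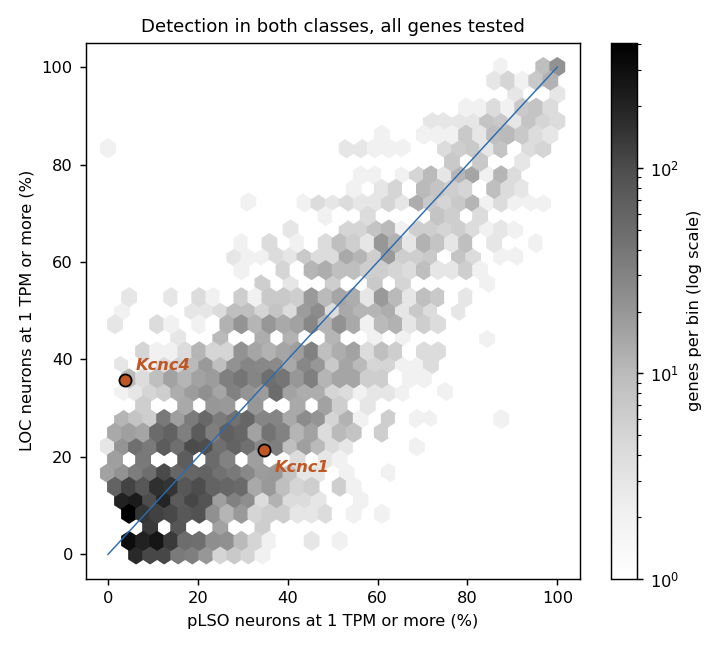
Percent of LOCs against percent of pLSOs at 1 TPM or more for the 10319 genes tested, shaded by the number of genes per bin (log scale), with the line of equal shares. Kcnc4 lies above the line at 3.85% and 35.7%, with other genes farther from the line than it, and Kcnc1 below the line at 34.6% and 21.4%.

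Levels of different genes can be compared only per length, so each value was also converted with the exon length of its gene and with all libraries brought to the same total, which rests on the extrapolated part of the model. On this rescaled scale Kcnc1 had a mean of 27.8 in pLSOs and 12.6 in LOCs. Kcnc4 had 0.610 in pLSOs and 19.0 in LOCs, Kcnb2 had 0 and 10.6, and Kcnc2 had 0.184 and 0.150. The order of the means in pLSOs was Kcnc1, Kcnc4, Kcnc2 and Kcnb2, and in LOCs Kcnc4, Kcnc1, Kcnb2 and Kcnc2. The SDs over the 28 LOCs were 63.5 for Kcnc4, 29.5 for Kcnc1 and 38.8 for Kcnb2 on the rescaled scale, larger than the steps between these 3 means, and the order was not tested. In pLSOs Kcnc1 had an SD of 57.3, and the means of the 3 others lay under 1.

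Most neurons listed at most 1 of the 4 genes. At least 1 was detected in 21 of 52 pLSOs (40.4%, interval 27.01% to 54.9%), in 17 of 28 LOCs (60.7%, interval 40.6% to 78.5%) and in 3 of 8 controls (37.5%, interval 8.52% to 75.5%). The mean number per neuron was 0.423 ± 0.537 in pLSOs and 0.714 ± 0.659 in LOCs (SD over neurons). A pair occurred in 4 of 80 neurons, and no neuron listed 3. The pairs were Kcnb2 with Kcnc1, Kcnb2 with Kcnc4 and Kcnc1 with Kcnc4, each in 1 LOC, and Kcnc2 with Kcnc4 in 1 Sustained neuron. No Onset neuron held more than 1.

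Since these channels shape the spike, the values were set beside the electrophysiology of the same neurons. The halfwidth of the action potential had a median of 0.36 ms in Onset neurons, 0.43 ms in Sustained neurons and 1.12 ms in LOCs. The 6 LOCs with Kcnc1 had halfwidths between 0.48 and 1.05 ms with a median of 0.86 ms, all under the median of their class, whose range was 0.48 to 3.37 ms. The 14 Onset neurons with Kcnc1 had halfwidths between 0.21 and 0.71 ms, against a class range of 0.21 to 0.76 ms. Their median of 0.39 ms lay above the class median of 0.36 ms. The 4 Sustained neurons with Kcnc1 had a median of 0.435 ms, beside 0.43 ms in their class. The 10 LOCs with Kcnc4 ran from 0.48 to 3.37 ms with a median of 1.27 ms, and the 3 with Kcnb2 from 0.99 to 1.48 ms.

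Within a class, rank correlations were given only where at least 10 neurons held the gene, as a description across neurons that share their slices and library preparation. Over the 41 Onset neurons Spearman's rho of Kcnc1 was 0.070 with halfwidth, -0.081 with spike latency, -0.098 with rheobase, -0.053 with input resistance and 0.090 with the number of detected genes. Over the LOCs Spearman's rho of Kcnc4 was 0.096 with halfwidth, -0.17 with latency and 0.36 with the number of detected genes (n = 28). The corresponding Pearson's r of Kcnc4 with halfwidth was 0.49, and the neuron of 72 TPM and 3.37 ms is the extreme in both measures. The correlations of Kcnc1 printed here lay between -0.098 and 0.090, while the rho of 0.36 and the r of 0.49 for Kcnc4 were larger. The 10 LOCs with Kcnc4 had a median of 2862 detected genes, beside 2394 in their class. All these values rest on sparse data, and none is given as a relation.

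**Figure D5:**
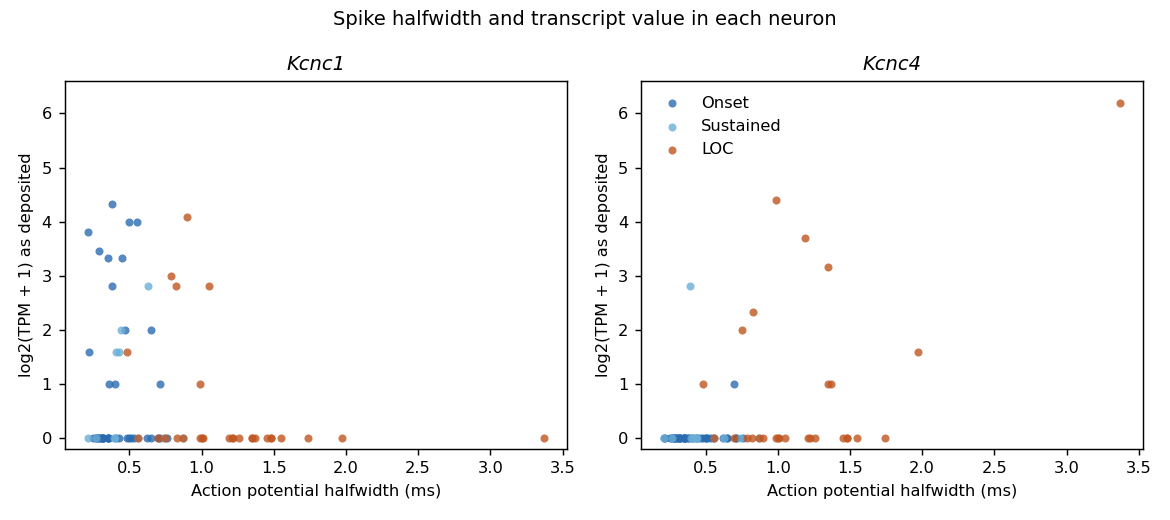
log2(TPM + 1) of Kcnc1 and Kcnc4 against the halfwidth of the action potential in ms, with 1 point per neuron, coloured by class. The LOCs with Kcnc1 lie at 0.48 to 1.05 ms, and 1 LOC with Kcnc4 stands alone at 3.37 ms.

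The genes that act with Kv2 subunits were also sparse. None of the 10 modifier subunits, which form no channel of their own, was detected in 5% of the neurons. Kcng4 was listed in 2 Onset neurons, Kcns3 in 1 Onset neuron, Kcnv2 in 2 pLSOs and Kcnf1 in 1 LOC, and the remaining 6 in no neuron. Of the 5 KCNE subunits in the table, small accessory proteins of potassium channels, Kcne1l was listed in 3 pLSOs and the others in no neuron. Amigo1, an adhesion protein that accompanies Kv2 channels, was listed in no neuron.

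The VAP proteins tether Kv2 clusters to the endoplasmic reticulum. Vapa was detected in 84.6% of pLSOs and 89.3% of LOCs, with means of 171 and 323 TPM, a difference under 2-fold. Vapb was detected in 3.85% of pLSOs and 14.3% of LOCs, with means of 0.212 and 0.893 TPM, at least 2-fold higher in LOCs like 21.9% of all genes tested. These proteins serve many other contacts of the endoplasmic reticulum.

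Among 21 further Kv alpha subunits, 11 passed the 5% filter, of which 6 were at least 2-fold higher in pLSOs and 2 in LOCs, while 3 were neither, beside 30.9% and 21.9% of all genes tested. Kcnh7, a subunit of the ether-a-go-go related family, was detected in 76.9% of pLSOs and 3.57% of LOCs, with means of 14.9 and 0.0357 TPM. Kcnd2, which carries A-type current, was detected in 1.92% of pLSOs and 25.0% of LOCs, with means of 0.0192 and 2.68 TPM. The medians of the 21 shares were 1.92% in pLSOs and 3.57% in LOCs.

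The genes whose values were most like those of a member over the 80 neurons were found by Spearman's rho among genes detected in at least 20% of them. For Kcnc1 these were Zmat4 (rho 0.44), Kif3a (rho 0.42) and Arhgap21 (rho 0.41), the highest of 4778 genes. Of the 24 neurons with Kcnc1, 16 also held Zmat4, 20 Kif3a and 16 Arhgap21. Zmat4 itself was detected in 53.8% of pLSOs and 10.7% of LOCs, Kif3a in 59.6% and 67.9%, and Arhgap21 in 48.1% and 21.4%. For Kcnc4 they were Chn2 (rho 0.52), Aimp1 (rho 0.48) and Pmp22 (rho 0.46), the highest of 4779 genes. Of the 12 neurons with Kcnc4, 9 also held Chn2, 8 Aimp1 and 8 Pmp22. Chn2 itself was detected in 60.7% of LOCs and 7.69% of pLSOs, Aimp1 in 35.7% and 11.5%, and Pmp22 in 42.9% and 13.5%. These correlations pool both classes.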

How the data were processed

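Cytoplasm of single LSO neurons was harvested through the patch pipette after recording, and each neuron and negative control gave 1 library. The authors trimmed the reads with Trim Galore 0.4.2, aligned them to mm10 with STAR, marked duplicates with Picard 1.115 and summarised them to Gencode genes with featureCounts. The score values of the table are TPM as deposited, as whole numbers with library sums from 999773 to 1000026. Electrophysiological features were taken from the labels. No read counts were used, so the reads behind a value were estimated from the spacing of values in the first rows of each library and, along the table, from exon lengths of Gencode vM21 in ascending order minus 80 bases. For 2 Onset neurons no estimate was obtained.

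Names and positions came from Gencode vM21 on GRCm38, which names 37570 of the 38887 rows. The genes and gene lists were chosen with earlier results of these data known. Named genes were the 4 members, partner genes detected in 5% of the neurons or listed in any, those of the 21 further Kv alpha subunits with the highest shares, and the 3 genes most like each member in at least 10 neurons. A few genes selected in this way were left unreported. The partner genes below 5% were named after their values were seen. A ratio of means of 2 or more, or a class at 0, counted as past 2-fold. For 0 of n neurons the limit is 3 over n. Log values used a pseudocount of 1. Scripts were tested on simulated data. Calculations used Python 3.11.15, pandas 2.3.3, NumPy 2.4.6 and SciPy 1.17.1, alignment MAFFT 7.526 and figures matplotlib 3.10.9.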

Additional observations from a re-analysis of the deposited data

Results flagged for a closer look

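Kcnc4 was at 6 TPM in 1 of the 8 negative controls used and at 0 in the other 7, so that it stood apart from its group, as any single listed value among zeros would. This control had 325 detected genes, and the value stood for about 1 read. A control that was left out of the comparisons listed Kcnc4 at 7 TPM, an estimated 9.50 reads, above every control used, and it had 3104 detected genes. A library with the LOC label that was left out listed Kcnc1 at 8 TPM, an estimated 15.3 reads, above the highest control value of 3 TPM.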

How the results depend on the processing

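Of 132 recomputed values, 103 kept their direction and stayed within the spread over neurons or within 1.5 times the count, 27 moved further and 2 reversed. Some of the 103 could not change, so the tally does not measure robustness. For 12 shares at a threshold of 1 on the rescaled scale, listed zeros stay 0 and every listed value lay above 1. Kcnb2 shares of 0% stay 0% at a higher threshold. The spread also admits large shifts, such as a mean of Kcnc4 in LOCs of 1.93 in place of 4.43 TPM without the highest neuron. With all 86 labelled neurons none of 32 values moved or reversed. At a threshold of 2 TPM the share with Kcnc2 was 0% in Onset, Sustained and LOC neurons and the share of Onset neurons with Kcnc4 0%. At 10 TPM the share with Kcnb2 was 0% of LOCs, with Kcnc1 12.2% of Onset, 0% of Sustained and 3.57% of LOC neurons, with Kcnc2 0% of each class, and with Kcnc4 0% of Onset, 0% of Sustained and 10.7% of LOC neurons. Rescaled to each gene's own length, the log2 difference of Kcnb2, pLSO minus LOC, was -0.67 in place of -0.20. Without the 2 neurons of lowest and the 2 of highest number of detected genes in each class, an alternative chosen after seeing the data, the log2 difference of Kcnc2 was -0.021 in place of 0.0027, because the Sustained neuron with the most genes was left out. Pearson's r of Kcnc1 with halfwidth in Onset neurons was -0.035, where Spearman's rho was 0.070. The counts of genes past 2-fold follow the filter on detection: 3189 genes were higher in pLSOs and 2259 in LOCs at 5% of neurons, 986 and 749 at 20%, and 6417 and 3905 with detection in 1 neuron; for Onset and Sustained neurons they were 3633 and 2446, 1200 and 825, and 6254 and 3744. No paired analysis was possible because the labels carry no replicate number, animal or day, and no result comes from a test. Rounding to whole TPM at its row limits Kcnb2 most, where by the extrapolated lengths fewer than 52 reads are printed as 0 in the median neuron.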
